A study of Mus musculus with 24 samples.

Results

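The genes described here are the estrogen receptors Esr1, Esr2 and Gper1, the estrogen-related receptors Esrra, Esrrb and Esrrg, and the estrogen target genes Pgr and Greb1, 8 of the 54532 genes counted. They were picked by name, and Esr1 because its counts were already known to be high in the mutants, so its difference between genotypes is described here without a test. The other 7 genes were taken for their roles, to see whether they moved with Esr1. The libraries hold polyadenylated RNA of 2 brain regions, cerebrum and cerebellum, of C57BL/6J mice labelled Polr3a mutant or wild type; Polr3a is the gene of the catalytic core subunit of RNA polymerase III. Tamoxifen was given to all mice, wild types included, at postnatal day 28 (P28) to induce recombination, so every library comes from an animal exposed to a drug that itself binds estrogen receptors. There were 6 groups of 4 libraries, mutants and wild types of each of 3 kinds: P42 cerebrum, P42 cerebellum and P75 cerebrum. Each cerebrum group at P42 had 2 males and 2 females, the cerebellum had 2 males and 2 females among mutants and 3 males and 1 female among wild types, and at P75 every mouse was male. The labels name neither the recombinase nor the promoter that drove it, do not say whether wild types carried it, and do not say that each library came from its own animal, so p-values measure the spread between libraries.

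Estrogen receptor alpha, encoded by Esr1, and estrogen receptor beta, encoded by Esr2, are nuclear receptors that bind estradiol and then act on DNA at estrogen response elements. Gper1 encodes a G protein-coupled receptor at cell membranes that also responds to estradiol. The estrogen-related receptors share the DNA-binding fold but do not bind estradiol, and with the coactivators of the Ppargc1 family they drive genes of mitochondrial oxidation. Pgr, the progesterone receptor gene, and Greb1, a receptor cofactor gene known from human breast cancer cells, are textbook genes that activated estrogen receptor alpha raises. In rat brain estradiol is known to raise progestin receptors in hypothalamus and preoptic area, while those of cortex respond little. Tamoxifen-inducible recombinases are, as a class, Cre fused to a mutated ligand-binding part of the estrogen receptor. The deposited counts are totals per gene, so reads of the Esr1 gene itself and reads of any transgene that holds part of its sequence cannot be told apart here.

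The promoters of the 2 target genes are shown because estrogen receptors act on DNA at known letters. Both stretches are the 250 bases before the first RefSeq start of the gene (GRCm38.p6), read on the strand of the gene, and capitals mark a single half-site.
Pgr, chr9:8899583-8899832, plus strand: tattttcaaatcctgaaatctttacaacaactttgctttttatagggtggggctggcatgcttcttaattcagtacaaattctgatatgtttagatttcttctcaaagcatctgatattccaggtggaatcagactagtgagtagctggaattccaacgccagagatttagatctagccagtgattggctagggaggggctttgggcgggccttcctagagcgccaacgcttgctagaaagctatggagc
Greb1, chr12:16800887-16801136, minus strand: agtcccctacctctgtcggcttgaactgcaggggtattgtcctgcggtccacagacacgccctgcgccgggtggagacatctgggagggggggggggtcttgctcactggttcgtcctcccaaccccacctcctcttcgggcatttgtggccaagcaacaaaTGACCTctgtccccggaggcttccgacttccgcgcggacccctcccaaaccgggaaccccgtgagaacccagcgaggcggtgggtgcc
The full estrogen response element was searched as GGTCANNNTGACC, the half-site as AGGTCA and the extended half-site that estrogen-related receptors prefer as TCAAGGTCA, each on both strands; the extended half-site contains the half-site. All 8 genes had a RefSeq entry, with 14 such windows among them. None of these windows held the full element, which 0.0639% of 32851 mouse windows of this length hold. The half-site, present in 14% of all windows, appeared in the Greb1 window alone, in reverse orientation 88 to 83 bases before the start. The extended half-site, present in 0.387% of all windows, was in none. These searches say only which letters lie in these windows.

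Total counts per library ranged from 13.8 to 23.2 in units of 1000000. Polr3a itself averaged 37.6 ± 3.77 CPM (counts per 1000000 of the library total; SD, n = 4) in mutants and 39.5 ± 3.65 CPM in wild types in cerebrum at P42, and its adjusted p was at least 0.542 in each of the 3 comparisons. Summed markers of cerebrum (8 genes) had a median of 605 CPM in wild type cerebrum and 128 CPM in wild type cerebellum at P42, and those of cerebellum (9 genes) 97.5 and 4417 CPM, as their labels say. Markers of hypothalamus, where Esr1 is known to be abundant, differed widely between cerebrum libraries at P42. The sum of 22 hypothalamus markers was 78.7, 239, 473 and 398 CPM in mutant replicates 1 to 4, and 32.7, 79.8, 142 and 163 CPM in wild type replicates 1 to 4. Mutant replicates 3 and 4 stood highest. The same 2 libraries had the lowest sums of cerebrum markers, 235 and 246 CPM, where the other mutants had 372 and 633 CPM and the wild types 387 to 768 CPM. In that comparison 0 of 8 cerebrum markers were higher in mutants (median log2 fold change -0.81), 1 of 10 choroid plexus markers (-1.15) and 0 of 8 microglia markers (-0.30). None was called by edgeR (0, 7 and 4 unadjusted, 0, 2 and 2 by DESeq2). Of 18205 genes tested there, edgeR called 3 and DESeq2 233, and 2299 had an unadjusted p under 0.05. Cerebellum markers there summed to 207, 150, 325 and 375 CPM in mutant replicates 1 to 4, and 319, 78.1, 111 and 83.8 CPM in wild type replicates 1 to 4. Of 8 tested, 5 were higher in mutants (median 0.55), with 0 called by edgeR (2 unadjusted, 1 by DESeq2). Apart from cerebrum fits that took the hypothalamus markers as a covariate, the part of these markers in the P42 results was not tested.

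Esr1 (ENSMUSG00000019768, chromosome 10, 4611593 to 5005614, plus strand, mm10) was far higher in mutants in both tissues and at both ages. The P42 cerebrum had 60.8, 61.4, 40.7 and 43.9 CPM in mutants, against 1.49, 3.37, 3.79 and 9.36 CPM in wild types. Even the lowest mutant stood 4.35 times above the highest wild type, and wild types spread more among themselves (6.27 times between highest and lowest) than mutants did (1.51 times). In cerebellum it had 82.1, 51.1, 75.4 and 49.1 CPM in mutants, against 1.71, 1.64, 2.17 and 1.79 CPM in wild types. In this tissue the wild types were lowest and the gap was widest, with a ratio of means of 35.3. At P75 the cerebrum had 102, 136, 66.2 and 63.1 CPM in mutants, against 6.44, 6.40, 4.88 and 5.22 CPM in wild types. Mutant replicates 1 and 2 were clearly above replicates 3 and 4 at this age, and the groups were again far apart. The ratio of means was 11.5 in cerebrum at P42 and 16 at P75.

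As a description, the log2 fold change of Esr1, mutant over wild type, was 3.56 ± 0.44 (SE) in cerebrum at P42, 5.16 ± 0.23 in cerebellum and 3.90 ± 0.23 in cerebrum at P75. The genotype effect in cerebellum was larger than in cerebrum by 1.58 ± 0.54 on the log2 scale, and that at P75 larger than at P42 by 0.36 ± 0.50, which is within its error. Leaving out wild type replicate 4 of cerebrum at P42, the library with the most Esr1 among them, turned the second difference to -0.18 and left the first at 1.03. In whole tissue, more cells with RNA counted as Esr1 and more of it per cell cannot be told apart, nor can Esr1 RNA and that of a transgene with part of its sequence.

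**Figure D1:**
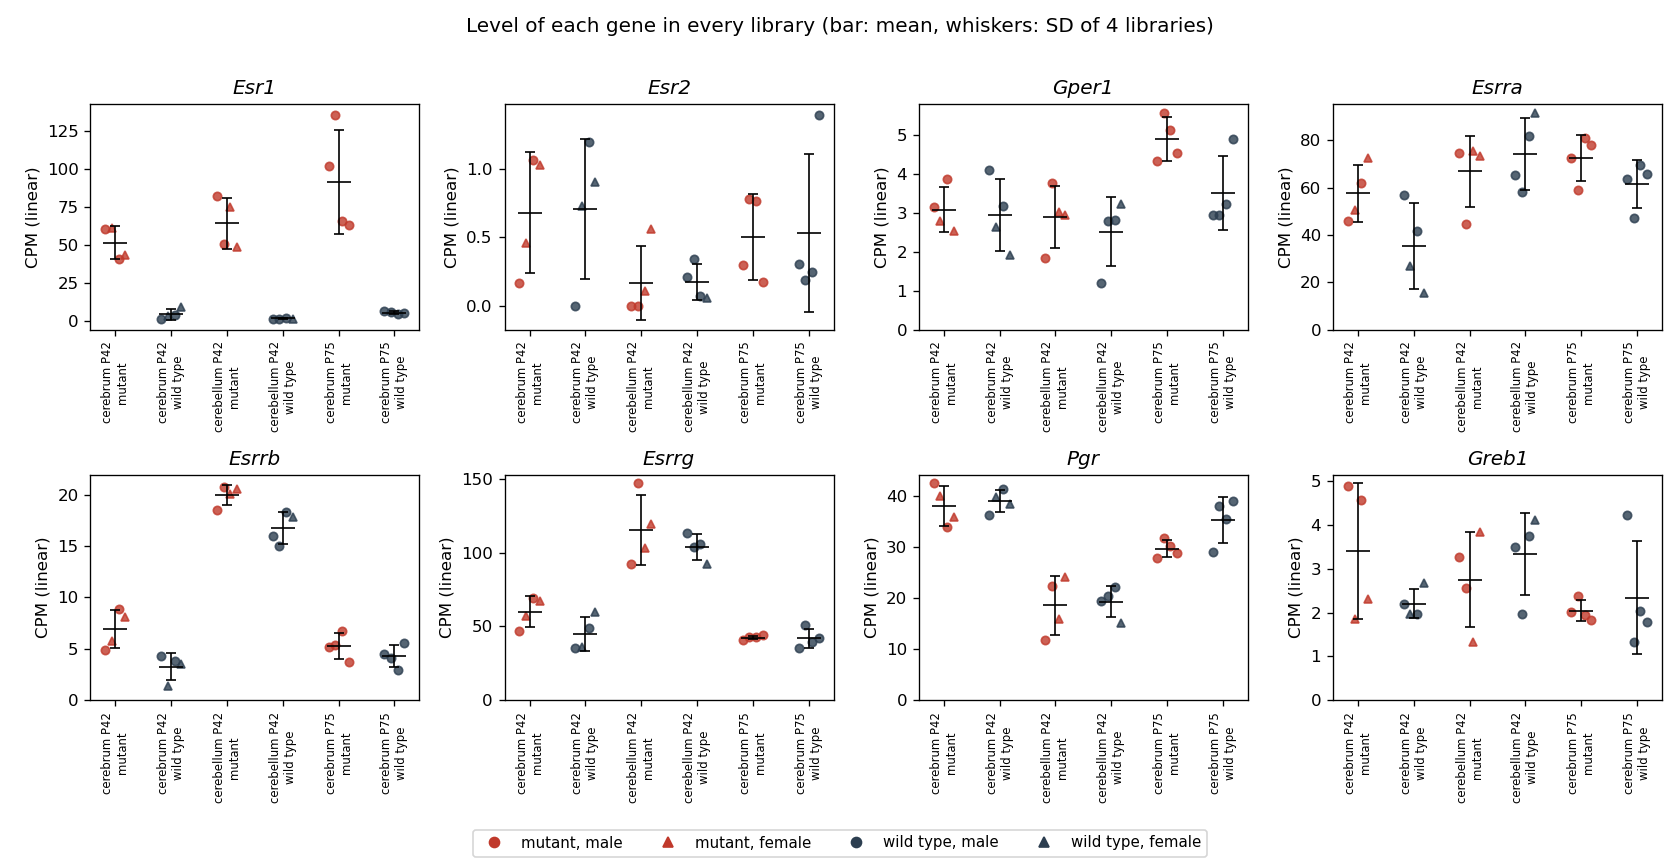
Level of each of the 8 genes in every library, in CPM on linear axes that start at 0 or just below it, one panel per gene; circles are males, triangles females, bars the mean and whiskers the SD of 4 libraries. Esr1 separates mutants from wild types in all 3 pairs of groups, with mutants at 40.7 to 136 CPM and wild types at 1.49 to 9.36 CPM, while of the other 7 genes Esrrb alone separates, in both P42 pairs and by a small gap.

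The hypothalamus markers did not run with Esr1 among mutants at P42. Wild types of P42 cerebrum had the same order in both measures, lowest in replicate 1 and highest in replicate 4. The mutants did not: replicates 3 and 4, with 473 and 398 CPM of markers, had the least Esr1, and replicate 1, with 78.7 CPM of markers, had 60.8 CPM of Esr1. In cerebellum the marker sums were 11.0, 68.6, 17.1 and 123 CPM in mutants and 54.2, 57.1, 78.9 and 48.7 CPM in wild types, and the mutants with the fewest markers had the most Esr1. The sums overlapped in cerebrum at P75, at 182 to 229 CPM among mutants and 146 to 245 CPM among wild types. Mutant replicates 1 to 4 had 229, 199, 218 and 182 CPM of markers there, beside 102, 136, 66.2 and 63.1 CPM of Esr1. With the mean log2 level of the markers as a covariate the log2 fold change of Esr1 was 3.49 in cerebrum at P42 and 3.90 at P75. Kiss1, a hypothalamic peptide gene, was at 0 in all 6 groups, and Nkx2-1, Sim1 and Six6, which specify hypothalamic neurons, were at 0 throughout the cerebellum. These were 4 of the 22 markers, and the others had some counts in each group. Beyond the covariate, the part of hypothalamus tissue in the Esr1 levels was not tested.

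**Figure D2:**
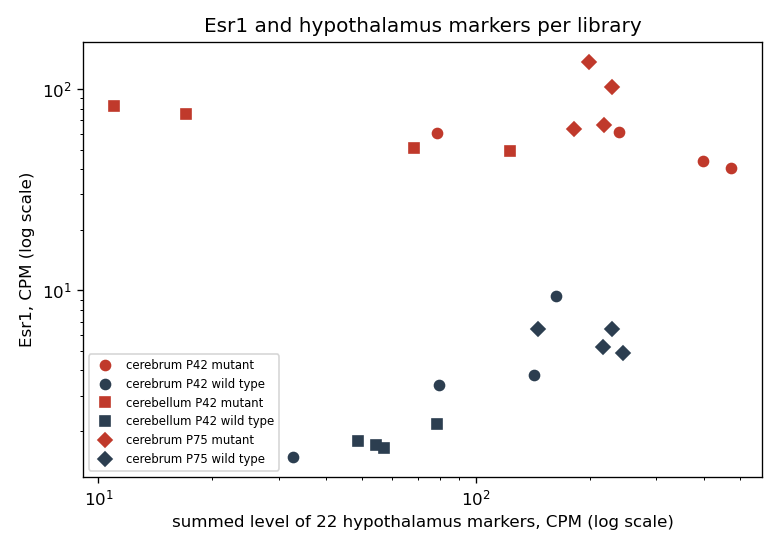
Esr1 level against the summed level of 22 hypothalamus markers in each of the 24 libraries, both in CPM on log axes; red marks mutants and dark blue wild types, and the shape marks tissue and age. All mutants lie above all wild types by Esr1, at 40.7 CPM and above against 9.36 CPM and below, also where the marker sums of both genotypes coincide, between 48.7 and 245 CPM.

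None of the tested genes beside Esr1 on the chromosome was called as higher in mutants. On the lower-coordinate side Rmnd1, Armt1 and Ccdc170, and on the other side Syne1, Vip and Fbxo5, are the 3 nearest protein-coding genes that were abundant enough to test. Ccdc170, the nearest below at 49 kb, averaged 1.90 CPM among mutants and 0.997 CPM among wild types in cerebrum at P42 (log2 fold change 0.86 ± 0.64, adjusted p = 0.553 by edgeR's quasi-likelihood test). In cerebellum its log2 fold change was -0.35 ± 0.39 and in cerebrum at P75 0.04 ± 0.40. Syne1, a nuclear envelope protein gene 15 kb away, fell in cerebrum at P75, with 410 CPM among mutants and 475 CPM among wild types (-0.32 ± 0.08, adjusted p = 0.0218). In that comparison 14.3% of all genes were called. No other neighbour passed an adjusted p of 0.05 in any comparison. Armt1 (-0.32 ± 0.11, adjusted p = 0.0613 by edgeR) and Rmnd1 (-0.36 ± 0.12, adjusted p = 0.0689) came nearest, as lower in cerebrum at P75.

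Few of the other 7 genes passed the test between genotypes. In cerebrum at P42, 0 of 7 passed an adjusted p under 0.05 by edgeR, where 0.0165% of 18205 genes passed (2 of 7 had an unadjusted p under 0.05, and DESeq2 called 0). In cerebellum 0 of 6 passed, where 0.0114% of 17616 genes passed (0 unadjusted, 0 by DESeq2). Over all genes, 2299 had an unadjusted p under 0.05 in cerebrum at P42 and 819 in cerebellum, and DESeq2 called 233 and 41. At P75, 1 of 6 passed in cerebrum, where 14.3% of 17523 genes passed and 6.62% passed as lower; it was Pgr, which was lower in mutants. Esr2 was too low to be tested in cerebellum and in cerebrum at P75. With the hypothalamus markers as a covariate 0 of 7 passed in cerebrum at P42, where 0 of 18205 genes passed. Pgr then had a log2 fold change of 0.05, Greb1 0.43, Gper1 0.13 and Esrra 0.86. At P75 Pgr still passed with this covariate (-0.34, adjusted p = 0.0379 by edgeR), where 2715 of 17523 genes passed.

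Pgr (chromosome 9, 8899833 to 8968611, plus strand), the best known target of estrogen receptor alpha, passed no test as higher in mutants, at either age or in either tissue. P42 cerebrum had 42.6, 40.0, 33.9 and 35.8 CPM in mutants, against 36.2, 39.8, 41.4 and 38.5 CPM in wild types. The groups overlapped fully, and the log2 fold change was -0.10 ± 0.13 (adjusted p = 0.746), with a 95% interval from -0.39 to 0.20. In cerebellum it had 11.8, 22.3, 15.9 and 24.2 CPM in mutants, against 19.4, 20.5, 22.2 and 15.1 CPM in wild types. The 2 mutants with the most Esr1, replicates 1 and 3, had the least Pgr there and the fewest hypothalamus markers. They also had the most cerebellum markers, 5951 and 5364 CPM, against 2640 and 1679 CPM in mutant replicates 2 and 4. Wild types had 3385 to 5043 CPM of these markers, and their part in the Pgr levels was not tested. The log2 fold change of Pgr was -0.02 ± 0.26, with an interval from -0.61 to 0.57.

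Pgr fell in cerebrum at P75. It had 27.8, 31.7, 30.2 and 28.9 CPM in mutants, against 29.0, 38.0, 35.5 and 39.0 CPM in wild types. The mutants lay below 3 of the 4 wild types, and wild type replicate 1 fell within the mutant range. The log2 fold change was -0.36 ± 0.10 (adjusted p = 0.0334 by edgeR), with an interval from -0.58 to -0.14, and the table deposited by the authors gives -0.36 with an adjusted p of 0.0152. The call was lost when mutant replicate 1, 3 or 4 or wild type replicate 2, 3 or 4 was left out, with values of -0.37 to -0.31 and adjusted p of 0.0528 to 0.117, and with library size as the only scaling (-0.25, adjusted p = 0.104). The fall did not differ from the effect at P42 beyond error (difference -0.26 ± 0.17, adjusted p = 0.506).

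Markers of some other cell types and regions also differed in the cerebrum at P75, where 14.3% of all genes were called and 6.62% were called lower. Summed cerebrum markers, mostly genes of cortical and striatal neurons, were 453 to 598 CPM among mutants and 605 to 638 CPM among wild types, and 3 of 8 were called lower. Summed microglia markers (8 genes) were 328 to 629 CPM among mutants and 250 to 269 CPM among wild types, and 6 of 8 were called higher. Summed endothelial markers (6 genes) were 312 to 345 CPM among mutants and 235 to 244 CPM among wild types, with 3 called higher. Summed choroid plexus markers (10 genes) were 620 to 851 CPM among mutants and 423 to 604 CPM among wild types, with 8 of 10 higher and Ttr, the transthyretin gene, called (0.48, adjusted p = 0.014). Of 16 hypothalamus markers tested there, 2 were called higher, the peptide genes Avp (0.74, adjusted p = 0.025) and Agrp (1.17, adjusted p = 0.0298), and the median was -0.13. Agrp was scarce, at 0.627 to 2.46 CPM, and its call held in 1 of 8 fits that left out a library. That of Avp held in 7 of 8. The part of these differences in the lower Pgr was not tested.

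Greb1 (chromosome 12, 16670615 to 16800886, minus strand) was low everywhere and showed no difference past the test. In cerebrum at P42 it had 4.90, 1.85, 4.57 and 2.32 CPM in mutants, against 2.21, 1.98, 1.98 and 2.67 CPM in wild types. Both male mutants, replicates 1 and 3, were above all wild types, and both females were within or below their range. The log2 fold change was 0.45 ± 0.33 (adjusted p = 0.549, interval -0.30 to 1.20) with both sexes. In males alone, 2 per genotype, it was 1.13 and did not pass (adjusted p = 0.998 by edgeR), in a fit that called 0 of all genes. In cerebellum it had 1.34 to 3.85 CPM among mutants and 1.98 to 4.11 CPM among wild types (-0.28 ± 0.38, adjusted p = 0.984). In P75 cerebrum the mutants had 1.84 to 2.39 CPM and the wild types 1.32 to 4.23 CPM (-0.29 ± 0.33, adjusted p = 0.607). The intervals reached from -1.13 to 0.57 in cerebellum and from -0.99 to 0.40 at P75, so changes within these bounds were not excluded.

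**Figure D3:**
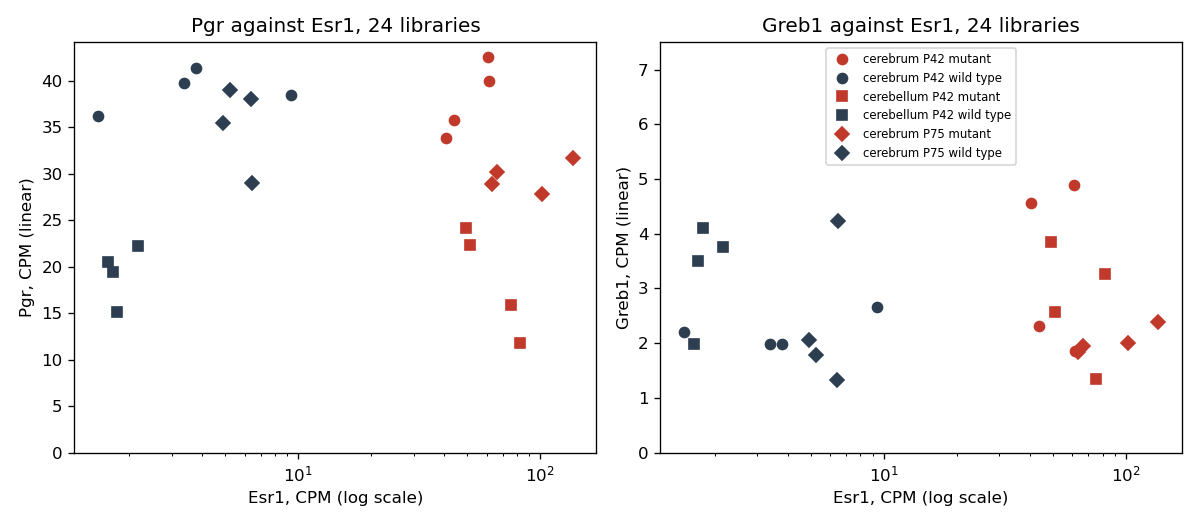
Pgr (left) and Greb1 (right) in CPM on a linear axis from 0, against Esr1 in CPM on a log axis, one point per library (24), red for mutants and dark blue for wild types. The mutants lie to the right of all wild types by Esr1, at 40.7 CPM and above. Pgr overlaps between genotypes in each pair of groups, at 11.8 to 24.2 CPM in mutant cerebellum and 15.1 to 22.2 CPM in wild type cerebellum, for example, and at P75 the mutants lie below 3 of the 4 wild types.

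The other receptors that bind estradiol were scarce. Esr2 (chromosome 12, 76120419 to 76177259, minus strand) had 0.169 to 1.07 CPM among mutants and 0 to 1.20 CPM among wild types in cerebrum at P42. Its log2 fold change was -0.14 ± 0.84 (adjusted p = 0.948), an error so wide that only very large changes could be seen. In cerebellum it had 0 to 0.562 CPM among mutants and 0.0596 to 0.341 CPM among wild types. A count of 0 was met in 3 libraries, mutant replicates 1 and 2 of cerebellum and wild type replicate 1 of cerebrum at P42, and allows up to 0.213, 0.157 and 0.166 CPM in them, for counting error alone. Esr2 in P75 cerebrum spanned 0.172 to 0.780 CPM among mutants and 0.188 to 1.40 CPM among wild types.

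Gper1 (chromosome 5, 139423151 to 139427800, plus strand) averaged 3.08 ± 0.583 CPM among mutants and 2.95 ± 0.918 CPM among wild types in cerebrum at P42 (log2 fold change 0.01 ± 0.24, adjusted p = 0.984). In cerebellum it averaged 2.89 ± 0.790 and 2.51 ± 0.886 CPM in mutants and wild types (0.17 ± 0.36, adjusted p = 0.996). The P75 cerebrum had 4.32, 5.56, 5.12 and 4.54 CPM in mutants, against 2.95, 2.95, 3.22 and 4.90 CPM in wild types. All mutants were above 3 of the wild types, but wild type replicate 4 lay among them, and the difference did not pass (0.38 ± 0.21, adjusted p = 0.253). Gper1 lies on top of 3110082I17Rik on the opposite strand, and whether the counting used strand is not given in the sources used here, so reads of the overlapping parts cannot be told apart. The same holds for Esrra with Trmt112 and for Esrrg with the antisense gene Gm36388, and none of these 3 partner genes was called.

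The estrogen-related receptors, which act on energy metabolism, did not pass the test in any comparison of genotypes. Esrrb (chromosome 12, 86361117 to 86521628, plus strand) came nearest in cerebrum at P42, with 4.90, 5.79, 8.88 and 8.13 CPM in mutants, against 4.31, 1.42, 3.85 and 3.52 CPM in wild types. All mutants were above all wild types, as for 4.78% of all genes. The log2 fold change was 1.04 ± 0.33 (unadjusted p = 0.011, adjusted p = 0.358 by edgeR). It was 0.53 with the hypothalamus markers as a covariate, and the 2 highest mutants for Esrrb were those with the most hypothalamus markers. The same 2 mutants, replicates 3 and 4, also had the most cerebellum markers, 325 and 375 CPM, against 207 and 150 CPM in replicates 1 and 2. Beyond that covariate fit, the part of either kind of marker in Esrrb was not tested. In cerebellum Esrrb had 18.5, 20.7, 20.1 and 20.5 CPM in mutants, against 16, 15.0, 18.3 and 17.8 CPM in wild types. Here too all mutants were higher, as for 1.74% of all genes, but by a small step (0.24 ± 0.13, adjusted p = 0.967). At P75 the cerebrum had 3.68 to 6.76 CPM among mutants and 2.98 to 5.54 CPM among wild types (0.20 ± 0.23, adjusted p = 0.610).

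Esrra (chromosome 19, 6910977 to 6921813, minus strand) had 45.9, 50.4, 61.9 and 72.5 CPM in mutants, against 57.1, 26.8, 41.7 and 15.6 CPM in wild types, in cerebrum at P42. The wild types were widely spread, with both females lowest, and the groups overlapped through wild type replicate 1, a male. That library had 319 CPM of cerebellum markers and the other wild types 78.1 to 111 CPM, and the part of these markers was not tested. The log2 fold change of Esrra was 0.75 ± 0.30 (unadjusted p = 0.0352, adjusted p = 0.381) and 0.07 in males alone. In cerebellum Esrra had 44.5 to 75.4 CPM among mutants and 58.2 to 91.4 CPM among wild types (-0.23 ± 0.17, adjusted p = 0.973), and in cerebrum at P75 58.9 to 81.0 and 47.0 to 69.6 CPM (0.13 ± 0.12, adjusted p = 0.5).

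Esrrg (chromosome 1, 187608791 to 188214885, plus strand) had 47.0 to 69.3 CPM among mutants and 35.7 to 59.7 CPM among wild types in cerebrum at P42 (0.34 ± 0.19, adjusted p = 0.445). This became -0.03 with the hypothalamus markers as a covariate. The part of the cerebellum markers, highest in mutant replicates 3 and 4 there, was not tested. In cerebellum it had 92.0 to 147 CPM among mutants and 92.0 to 113 CPM among wild types (0.21 ± 0.16, adjusted p = 0.974), and in cerebrum at P75 40.8 to 43.9 and 35.7 to 50.8 CPM (-0.09 ± 0.11, adjusted p = 0.622).

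**Figure D4:**
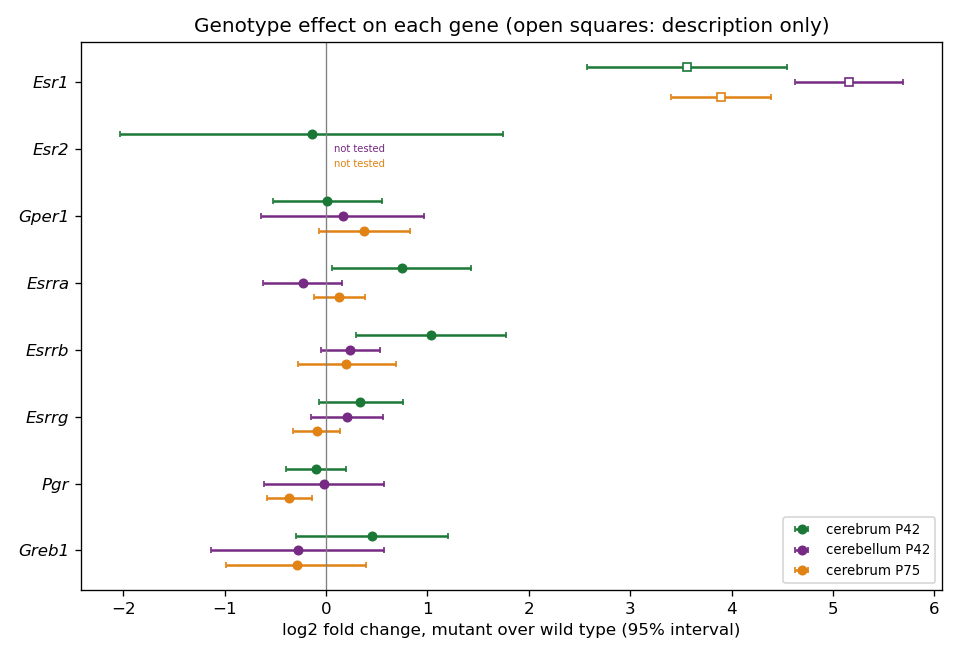
Log2 fold change of each gene, mutant over wild type, with its 95% interval, in the 2 tissues at P42 and in cerebrum at P75; Esr1 is drawn with open squares as a description. The intervals of Esr1, which was chosen for its difference, lie between 2.57 and 5.69 and are no test. Those of Pgr lie between -0.61 and 0.57, and Esr2 was tested in cerebrum at P42 only.

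The genotype effects of the other 7 genes were not shown to differ between tissues or ages. For tissue at P42, 0 of 7 were called, where 0.0% of 19614 genes were (1213 genes and 0 members had an unadjusted p under 0.05, and DESeq2 called 8 genes and 0 members). The largest differences, cerebellum minus cerebrum, were those of Esrra (-0.77 ± 0.42) and Greb1 (-0.73 ± 0.53), with an adjusted p of 0.732 and 0.747. For age, 0 of 7 were called by edgeR, where 1.36% of 19273 genes were (0 unadjusted, 0 by DESeq2). Over all genes 2713 had an unadjusted p under 0.05 and DESeq2 called 670. The largest difference, P75 minus P42, was that of Esrrb (-0.84 ± 0.41, adjusted p = 0.374).

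Compared per kilobase of the gene length in the tables, Esr1 stood higher in the order of the 8 genes in mutants than in wild types. In wild type cerebrum at P42 Esrra was highest, at 13.9 ± 7.11 CPM per kilobase, then Esrrg (7.24 ± 1.86), Pgr (4.56 ± 0.258), Gper1 (1.16 ± 0.362) and Esrrb (0.542 ± 0.211). Below them Esr1 (0.330 ± 0.248), Greb1 (0.231 ± 0.0338) and Esr2 (0.210 ± 0.151) did not differ beyond their spread. In mutants Esr1 reached 3.78 ± 0.801 CPM per kilobase in cerebrum at P42, next below Pgr at 4.45 ± 0.464, from which it did not differ beyond the spread. These values divide by the whole length of Esr1, so its place among mutants holds only if the reads come from the whole gene, which gene totals cannot tell. In cerebellum it reached 4.72 ± 1.23 in mutants, above Pgr at 2.17 ± 0.668 and below Esrrg at 18.6 ± 3.83. In mutant cerebrum at P75 it was 6.71 ± 2.51, close to Esrrg at 6.84 ± 0.207.

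Between tissues of wild types at P42, a contrast that played no part in the choice of genes, 4 of 7 tested genes differed, where 30.5% of 17964 genes did. Pgr was higher in cerebrum, with 39.0 ± 2.21 CPM there and 19.3 ± 3.02 CPM in cerebellum (log2 difference 1.19 ± 0.14, adjusted p = 0.000148). The estrogen-related receptors were lower in cerebrum: Esrrb had 3.28 ± 1.28 CPM there and 16.8 ± 1.53 CPM in cerebellum (-2.20 ± 0.28, adjusted p = 0.000205), and Esrrg 45.0 ± 11.5 and 104 ± 8.78 CPM (-1.09 ± 0.19, adjusted p = 0.0015). Esrra had 35.3 ± 18 CPM in cerebrum and 74.2 ± 15.2 CPM in cerebellum (-0.95 ± 0.30, adjusted p = 0.0364), a call lost without replicate 2, 3 or 4 of cerebrum or replicate 3 or 4 of cerebellum, with -0.97 to -0.36 and adjusted p of 0.0537 to 0.333. Esr1 in wild types had 4.50 ± 3.39 CPM in cerebrum and 1.83 ± 0.236 CPM in cerebellum, which missed the threshold (1.11 ± 0.47, adjusted p = 0.102). It passed without wild type replicate 1 of cerebrum (1.53, adjusted p = 0.0235). Among wild type cerebrum libraries at P42, that one had the fewest hypothalamus and the most cerebellum markers. Greb1 (-0.53 ± 0.28, adjusted p = 0.187) and Gper1 (0.36 ± 0.35, adjusted p = 0.481) did not pass.

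Between sexes, compared over the 8 cerebrum libraries at P42, 0 of 8 genes were called by edgeR, where 0.0275% of 18205 genes were. Of the 8, 1, Gper1, had an unadjusted p under 0.05, as 618 of all genes had. DESeq2 called 0 of the 8 and 7 of all genes. Gper1 differed by -0.54 ± 0.24, female minus male (adjusted p = 0.89), Esr1 by 0.57 ± 0.41 (adjusted p = 0.89) and Pgr by -0.01 ± 0.13 (adjusted p = 0.993).

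A wider list of 36 genes that estrogen is known to raise or lower in some tissue, Pgr and Greb1 among them, gave no call at P42. At that age 0.0165% of all genes were called in cerebrum and 0.0114% in cerebellum. An unadjusted p under 0.05 was met by 2299 of 18205 genes in cerebrum and 819 of 17616 in cerebellum, and DESeq2 called 233 and 41. In cerebrum 0 of 30 tested genes passed by edgeR (6 unadjusted, 2 by DESeq2), with a median log2 fold change of -0.03, against 0.013 over all genes. The smallest p were those of Rasd1, a Ras-related protein gene (26.0 ± 2.50 CPM among mutants and 11.7 ± 5.89 CPM among wild types, 1.21 ± 0.25, adjusted p = 0.23), and Gal, the galanin peptide gene of hypothalamic neurons (4.17 ± 2.63 and 0.603 ± 0.491 CPM, 2.74 ± 0.67, adjusted p = 0.314). Hypothalamus markers were higher in 17 of 17 tested in that comparison, with a median of 1.34 and 0 called, and their part in the values of Gal and Rasd1 was not tested. In cerebellum 0 of 29 passed (3 unadjusted, 0 by DESeq2), with a median of -0.07, against 0.010 over all genes, and Wnt4 (-0.78 ± 0.27) and Cxcl12 (-0.71 ± 0.25), a Wnt ligand and a chemokine gene, had the smallest p, each with an adjusted p of 0.967. Choroid plexus markers (10 genes) summed to 43.0 to 1034 CPM in the mutants and 1392 to 2480 CPM in the wild types of that comparison.

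At P75, 8 of 30 genes of the list passed in cerebrum, 4 higher and 4 lower (10 unadjusted, 9 by DESeq2), where 14.3% of all genes passed and 6.62% passed as lower. Of all 17523 genes, 5053 had an unadjusted p under 0.05 and DESeq2 called 3084. The median of the list was -0.17, against 0.003 over all genes. Stc2, which encodes a secreted glycoprotein that stressed cells also make, had 21.1, 21.2, 16.7 and 19.6 CPM in mutants, against 3.74, 3.58, 2.34 and 2.99 CPM in wild types. The groups were far apart and the spread was small, and Stc2 rose by 2.54 ± 0.16 on the log2 scale (adjusted p = 1.09e-06). Ptges, a prostaglandin E synthase gene, rose to 6.89 ± 0.678 CPM in mutants, against 3.72 ± 0.328 CPM in wild types (0.78 ± 0.16, adjusted p = 0.00528). Ctsd, the gene of the lysosomal protease cathepsin D, had 543, 508, 272 and 247 CPM in mutants, against 194, 173, 202 and 192 CPM in wild types (0.93 ± 0.20, adjusted p = 0.00617). Mutant replicates 1 and 2, highest for Ctsd, were also highest for Esr1 and for the microglia markers (597 and 629 CPM, against 366 and 328 CPM in mutant replicates 3 and 4), and the part of microglia in Ctsd was not tested. Nos1, the neuronal nitric oxide synthase gene, fell to 67.0 ± 1.06 CPM in mutants, against 75 ± 5.32 CPM in wild types (-0.27 ± 0.07, adjusted p = 0.0232). The calls of Stc2, Ptges and Ctsd held with each library left out, while that of Nos1 held in 5 of 8 such fits and was lost with library size as the only scaling (-0.16, adjusted p = 0.135). Mybl1 was the fourth that rose, and Tpbg and Brinp2 fell with Pgr and Nos1. The calls of Mybl1 and Tpbg held in 3 of 8 fits that left out a library and that of Brinp2 in 2 of 8, and with library size only Tpbg (-0.42, adjusted p = 0.0662) and Brinp2 (-0.16, adjusted p = 0.186) did not pass.

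Receptor coregulators, the proteins that estrogen receptors recruit, gave no call between genotypes: 0 of 20 tested in cerebrum at P42 (1 unadjusted, 0 by DESeq2), 0 of 19 in cerebellum (0 and 0) and 0 of 20 in cerebrum at P75 (1 and 1), with medians of -0.01, 0.05 and -0.01. The shares of all genes called in these comparisons were 0.0165%, 0.0114% and 14.3%. Over all genes 2299, 819 and 5053 had an unadjusted p under 0.05, and DESeq2 called 233, 41 and 3084. Between wild type tissues 2 of 19 were called, where 30.5% of all genes were, both lower in cerebrum: Safb2 (-0.54, adjusted p = 0.0169) and Ddx5 (-0.42, adjusted p = 0.0247). The histone acetyltransferase gene Ep300 came nearest at P75, with 116 ± 6.75 CPM among mutants and 91.6 ± 7.07 CPM among wild types (0.24 ± 0.08, adjusted p = 0.0528); it was followed there by Carm1, an arginine methyltransferase gene (-0.15 ± 0.08, adjusted p = 0.202). In cerebrum at P42 the smallest p were those of Prmt1 (0.33 ± 0.12, adjusted p = 0.377) and Ncoa1 (-0.33 ± 0.17, adjusted p = 0.433), in cerebellum those of Phb2 and Ncoa2.

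Of 18 genes of estrogen synthesis and metabolism, 16 were in the tables, and 0 of 10 tested passed in cerebrum at P42 (0 unadjusted, 0 by DESeq2) and 0 of 10 in cerebellum (0 and 0), Cyp1b1 having the smallest p in both. Of all genes, 0.0165% and 0.0114% passed there. In cerebrum at P75, 1 of 9 passed (6 unadjusted, 3 by DESeq2), where 14.3% of all genes passed. Of all 17523 genes there, 5053 had an unadjusted p under 0.05 and DESeq2 called 3084. Hsd17b7, an enzyme gene of cholesterol and estradiol synthesis, fell to 21.0 ± 1.18 CPM in mutants, against 28.6 ± 2.95 CPM in wild types (-0.55 ± 0.10, adjusted p = 0.00297).

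Genes that estrogen-related receptors drive, mostly of the citric acid cycle, respiratory chain and mitochondrial upkeep, gave no call at P42. Of 27 genes, 0 of 26 tested passed in cerebrum at P42 (3 unadjusted, 0 by DESeq2, median 0.10) and 0 of 27 in cerebellum (1 unadjusted, 0 by DESeq2, median 0.04). Over all genes 2299 and 819 had an unadjusted p under 0.05, and DESeq2 called 233 and 41. Of all genes, 0.0165% and 0.0114% passed there. The smallest p at P42 were those of Ldhb (0.29 ± 0.11, adjusted p = 0.371) and Kcna1 (0.28 ± 0.11, adjusted p = 0.38) in cerebrum and of Ppargc1a, the gene of the coactivator PGC-1alpha, in cerebellum (0.39 ± 0.13, adjusted p = 0.967). In cerebrum at P75, 1 of 26 passed as higher and 2 as lower (12 unadjusted, 7 by DESeq2), where 14.3% of all genes passed. Of all 17523 genes, 5053 had an unadjusted p under 0.05 and DESeq2 called 3084. The median of these targets was -0.10, against 0.003 over all genes. Perm1, a regulator of muscle mitochondria, had 8.64 ± 1.16 CPM among mutants and 5.14 ± 1.37 CPM among wild types (0.64 ± 0.19, adjusted p = 0.0386; 3 of 8 fits that left out a library kept the call). Ckmt1, the mitochondrial creatine kinase gene of brain, fell to 141 ± 3.08 CPM in mutants, against 169 ± 12.9 CPM in wild types (-0.37 ± 0.07, adjusted p = 0.00261), and this call held with each library left out. Idh3a, a citric acid cycle gene, fell by 0.22 ± 0.07 (adjusted p = 0.040), a call lost in all 8 fits that left out a library.

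**Figure D5:**
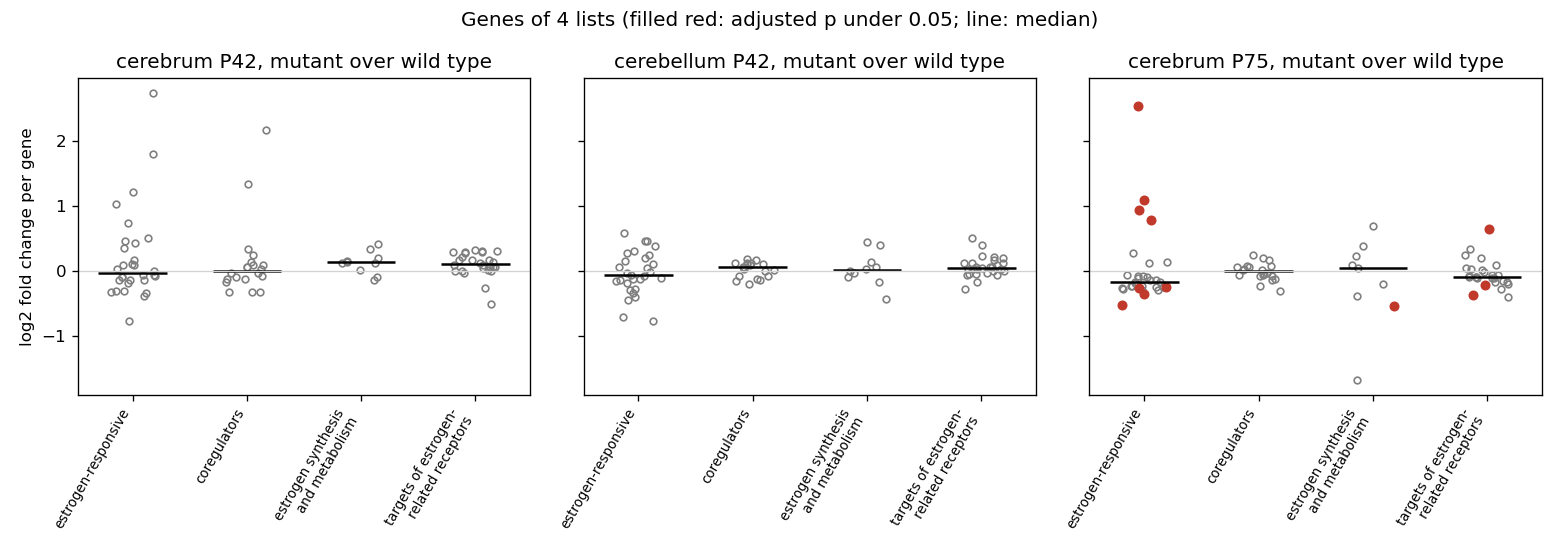
Log2 fold change, mutant over wild type, of each tested gene of 4 lists, one panel each for P42 cerebrum, P42 cerebellum and P75 cerebrum; filled red points passed an adjusted p under 0.05, open points did not, and the line is the median of the list. Calls appear at P75 alone, with Stc2 at 2.54 standing apart and the P75 medians between -0.17 and 0.04.

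The genes whose levels ran most like Esr1 were ranked by Pearson's correlation of log2(CPM + 0.5) among 16287 genes, as a description with no test. Over all 24 libraries, which fall into mutants and wild types by Esr1, they were Gm42047 (0.892), Trim66 (0.866), Asns, the asparagine synthetase gene (0.853), Gars (0.837) and Nars (0.820), the glycyl- and asparaginyl-tRNA synthetase genes. Over the 12 wild type libraries, which differ in tissue and age, they were other genes: Cacybp (0.953), Prkar1a (0.946), Hsp90b1 (0.938), Tmx4 (0.936) and Scg2 (0.935). Within the 12 mutant libraries the other 7 members had a correlation with Esr1 between -0.43 and 0.34, and within the 12 wild type libraries between -0.62 and 0.65, the highest of them Pgr.

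The other members were ranked in the same way over the 12 wild type libraries. Pgr was closest to Grm7, a metabotropic glutamate receptor gene (0.983), Garem1 (0.981) and Met, the hepatocyte growth factor receptor gene (0.981). Esrra was closest to Rnaseh2c (0.992), Poldip2 (0.991) and Kctd2 (0.990), Esrrb to Akain1 (0.983), Sptssb (0.980) and Phldb2 (0.976), and Esrrg to Prune2 (0.989), Pxk (0.984) and Armh4 (0.983). The scarcer genes had lower correlations: Esr2 was closest to Zfp57 (0.864), Syt10 and Zfp174, Gper1 to Pisd (0.876), C230012O17Rik and Gm5854, and Greb1 to Gpat3 (0.871), Rbm19 and Rflna.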

How the data were processed

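Polyadenylated RNA was sequenced from 24 libraries, per the labels. The authors deposited whole-number read counts per gene without scaling (mm10) and a table per comparison with log2 fold changes and adjusted p-values; per the submitters' processing notes HISAT2 and DESeq2 were used, without versions, and no source used here gives the counter, annotation release or strand setting. The gene length in the deposited tables is another kind of value, in bases. Genes and lists were chosen with earlier results of these data known. A further gene list is not reported here.

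Counts were scaled by TMM and tested in R 4.3.3 with edgeR 4.0.16 (quasi-likelihood F test, two-sided, filterByExpr by genotype, sex as a covariate at P42), Benjamini-Hochberg adjusted over all genes tested and called under 0.05. The tests were tried on simulated counts first. CPM uses the library total, while fold changes use TMM-scaled totals, so both can differ slightly in size. Differences between tissues and ages were interaction terms over 16 libraries each; P42 and P75 have separate count tables, so each age was set against its own wild types.

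The text names the 8 members, Polr3a, up to 4 called genes of each list with the smallest p (or 2 where none was called), the 3 nearest testable genes on each side of Esr1, and the genes most like each member. Mybl1, Tpbg and Brinp2 were named after their values were seen. Alternatives were DESeq2 1.42.0, RLE scaling, library size alone, no filter or at least 1 CPM in 4 libraries, hypothalamus markers as a covariate, a replicate block, males only, leaving out the sex term or any one library, and a threshold of 0.01. Promoter windows came from RefSeq (GRCm38.p6). Depth was 13.8 to 23.2 in units of 1000000 counts, and limits from a count of 0 use 3 counts and cover counting error only.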

Additional observations from a re-analysis of the deposited data

Results flagged for a closer look

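Of 48 groups of 4 libraries screened (8 genes in 6 groups), 3 held a library far from the others of its group, where chance gives about 1 in 20. Esr2 in wild type cerebrum at P75 was highest in replicate 4, at 1.40 CPM, with the other wild types at 0.188 to 0.307 CPM. Gper1 in wild type cerebrum at P75 was highest in the same replicate 4, at 4.90 CPM, with the others at 2.95 to 3.22 CPM. Without that library the log2 fold change of Gper1 at P75 was 0.58 (adjusted p = 0.0957 by edgeR's quasi-likelihood test), against 0.38 with it. That library also had the most pituitary marker counts, 10.2 CPM over 9 genes, where the other 23 libraries had at most 7.54 CPM. Esrra in mutant cerebellum at P42 was lowest in replicate 2, at 44.5 CPM, with the other mutants at 73.4 to 75.4 CPM.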

How the results depend on the processing

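Of the alternative values for members, 868 stayed on their side of the threshold or, for Esr1, near their value, and 20 did not. No filter raised the members called in cerebrum at P42 to 2, Esrra (0.76, adjusted p = 0.000471) and Esrrb (1.05, adjusted p = 0.0102), and those called for the age difference to 1, Esrra (-0.61, adjusted p = 0.0309); it tests 34243 genes in place of 18205 at P42. In cerebrum at P75 the members called fell to 0 with library size only, under an adjusted p of 0.01, and in 6 of 8 fits that left out a library (range 0 to 1; call kept without mutant replicate 2 or wild type replicate 1). With library size only the median of all genes there is 0.108, against 0.003 with TMM, and the calls split into 2313 higher and 547 lower, against 1342 and 1160 with TMM. In the wild type tissue contrast the members called ranged from 3 to 6. The age difference of Esr1 ranged from -0.18 to 0.66 over the fits that left out a library, reversed without wild type replicate 4 of cerebrum at P42; the cause was not tested.

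Counts over all genes moved more. In cerebrum at P42, 3 genes were called, 233 by DESeq2, 1312 with no filter and 0 to 11 without a library; in cerebellum 2, 41, 153 and 1 to 2. In cerebrum at P75, 2502 were called, 1086 under 0.01, 1634 when wild type replicate 4 was left out and 1356 when mutant replicate 1 was. Tissue differences went to 8 by DESeq2 and 279 with no filter, age differences (263) spanned 100 to 1176, wild type tissue calls (5472) fell to 3311 under 0.01, and sex calls (5) reached 60 with no filter.

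The replicate numbers were not taken to pair the libraries. Same-numbered libraries had correlations of their deviations from -0.40 to 0.28. At P75, with 0.04 to 0.19, 4 of 4 mutant libraries correlated best with the wild type of their own number, so pairing is not excluded there. With a replicate block, 8 genes were called in cerebrum at P42, 1 in cerebellum, 3537 in cerebrum at P75 and 2658 between wild type tissues. Members called stayed at 0, 0 and 1 (Pgr -0.35, adjusted p = 0.00899), and were 3 between tissues, where Esrra had -1.09 (adjusted p = 0.137). Depth limits Esr2, with at most 23 counts in a library.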
